A study of Arabidopsis thaliana with 4 samples.

Results

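Farnesoic acid carboxyl-O-methyltransferase (FAMT, AT3G44860), its neighbour AT3G44870, jasmonate methyltransferase (JMT, AT1G19640) and the benzoate and salicylate methyltransferase BSMT1 (AT3G11480) were examined for the histone mark H3K4me3 in Arabidopsis roots. These 4 genes, of 27444 protein-coding genes on chromosomes 1 to 5, were given by locus. FAMT was selected on its difference in H3K4me3 signal between these stress and control libraries, and the others as its neighbour and as relatives, so the values of the 4 genes are a description and carry no test. In each library, every called peak was taken that overlapped the span from 1 kb upstream of the transcription start site (TSS) to the gene end.

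H3K4me3 was profiled by CUT&Tag, in which an antibody brings a transposase to the mark so that the surrounding DNA is cut out and sequenced. The stress group was 2 root libraries of Col-0 plants under osmotic stress, which in the study's methods is growth for 10 days with 250 mM sorbitol, and the control group was 2 root libraries of Col-0 plants grown for 10 days without it. All 4 libraries had the same wild-type background, and the study calls its CUT&Tag replicates biological. Neither the labels nor the methods say which plants or pools each library came from, so p-values measure the spread between these libraries. Whole roots or root tips mix many cell types, and fewer cells carrying the mark cannot be told apart from less mark per cell.

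FAMT, JMT and BSMT1 are enzymes of the SABATH family, which take the methyl group of S-adenosylmethionine and place it on the carboxyl group of a small acid. JMT makes the volatile methyl jasmonate from jasmonic acid, BSMT1 makes methyl salicylate and methyl benzoate, and FAMT acts on farnesoic acid. Methyl esterases of the MES family can remove such methyl groups again. H3K4me3 lies at the start of genes that are or have been transcribed, so a gene that is silent in most root cells is usually without a peak.

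The stress libraries held 15974955 and 25714827 fragments and the control libraries 9011630 and 6396842. Both stress libraries were deeper than both control libraries, so depth and condition cannot be told apart where a peak is called in one group and not in the other. On the 5 nuclear chromosomes, 14781 and 15783 peaks were called in stress libraries, and 13695 and 12698 in control libraries. Signal was the pileup, the number of fragments stacked at the summit of a peak, per 1000000 fragments of the library (FPM). Median signal over the peaks was 11.9 and 10.8 FPM in stress libraries and 11.4 and 12.0 FPM in control libraries, so the groups overlapped. Of 9 root marker genes, 2 had a peak in every library and 4 had none (WOX5, GL2, SHV2 and EXPA7), and of 6 floral marker genes 5 had no peak in any library. Among the root markers SHR, a transcription factor of the stele, fell, with 10.9 and 9.49 FPM in stress libraries and 19.1 and 17.8 FPM in control libraries (log2 -0.86 ± 0.13 SE, adjusted p = 2.0e-06 by limma). PLT2, of the stem cell niche, did not pass (5.38 and 4.28 FPM in stress libraries and 4.88 and 5.47 in control libraries, log2 -0.11, adjusted p = 0.72 by limma). SCR, of the endodermis, had 14.0 and 14.2 FPM in stress libraries, against 14.6 in control replicate 1, and PLT1 had 4.32 and 3.34 FPM in stress libraries, against 3.77 in control replicate 1, and neither had a peak in control replicate 2. RHD6, of root hair cells, had 5.70 and 5.95 FPM in stress libraries and no peak in control libraries, a pattern found for 4.66% of all genes. Whether the makeup of the roots has a part in the results below was not tested.

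The regions around the start sites are shown because H3K4me3 is a mark of gene starts and the 4 genes were compared there. A called peak reached into the window of AT3G44870 in stress libraries, and none reached into those of FAMT, JMT and BSMT1. Each line gives 250 bases before and 50 bases after the TSS on the strand of the gene, read from the TAIR10.1 reference. Capitals mark, on either strand, the T/G-box (AACGTG), a sequence known to be bound by MYC factors of jasmonate signalling, and the W-box core (TTGAC), known to be bound by WRKY factors. The positions are chr3:16379321-16379620 on the plus strand for FAMT, chr3:16381969-16382268 on the plus strand for AT3G44870, chr1:6791870-6792169 on the minus strand for JMT and chr3:3614171-3614470 on the plus strand for BSMT1.

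FAMT: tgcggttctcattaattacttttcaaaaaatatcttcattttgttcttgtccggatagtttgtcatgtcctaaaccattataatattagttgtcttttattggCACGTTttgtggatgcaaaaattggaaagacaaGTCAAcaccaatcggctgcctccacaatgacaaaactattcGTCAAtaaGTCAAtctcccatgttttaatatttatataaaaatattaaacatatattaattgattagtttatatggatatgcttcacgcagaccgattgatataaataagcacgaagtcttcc
AT3G44870: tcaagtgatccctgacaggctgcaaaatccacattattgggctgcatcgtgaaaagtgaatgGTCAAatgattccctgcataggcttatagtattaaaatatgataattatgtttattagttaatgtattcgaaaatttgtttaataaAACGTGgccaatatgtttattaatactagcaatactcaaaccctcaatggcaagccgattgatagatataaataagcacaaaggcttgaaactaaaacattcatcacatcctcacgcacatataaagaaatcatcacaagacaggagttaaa
JMT: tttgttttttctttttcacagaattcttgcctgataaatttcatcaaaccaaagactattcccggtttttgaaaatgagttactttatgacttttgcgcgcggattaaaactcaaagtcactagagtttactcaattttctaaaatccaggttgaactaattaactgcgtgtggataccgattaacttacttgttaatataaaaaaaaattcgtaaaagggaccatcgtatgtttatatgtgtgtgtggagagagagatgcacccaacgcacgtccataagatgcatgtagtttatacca
BSMT1: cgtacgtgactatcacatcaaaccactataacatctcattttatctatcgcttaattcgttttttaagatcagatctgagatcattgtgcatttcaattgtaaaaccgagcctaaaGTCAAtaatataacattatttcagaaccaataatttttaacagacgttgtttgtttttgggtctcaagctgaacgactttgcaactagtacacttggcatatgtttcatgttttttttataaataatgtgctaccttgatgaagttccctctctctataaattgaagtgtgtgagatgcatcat

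A T/G-box was present once in the window of FAMT, at position -147 from the TSS, and once in that of AT3G44870, at position -102. JMT and BSMT1 had none, and 8.95% of the 27443 protein-coding genes with a full window had at least 1. W-box cores numbered 3 for FAMT, 1 for AT3G44870, 0 for JMT and 1 for BSMT1, and 50.5% of all windows held at least 1. The G-box (CACGTG, in 7.68% of windows) and the GCC-box (GCCGCC, in 2.57%) were in none of the 4 windows. These are matches of letters in a 300-base window and were not tested for binding.

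FAMT and AT3G44870 are close copies that lie head to tail on chromosome 3. FAMT spans chr3:16379571-16381434 with 3 exons and a coding length of 1047 bases, and AT3G44870, annotated only as a methyltransferase superfamily protein, spans chr3:16382219-16383605 with 3 exons and a coding length of 1140 bases. Of 1038 aligned coding bases 962 were identical (92.7%), whereas FAMT shared 61.5% with JMT and 61.7% with BSMT1. A related copy on the other strand, AT3G44840, shared 82.4% with FAMT. The start-site windows of FAMT and AT3G44870 were less alike, with 58.1% identity over 277 aligned bases. Reads of near-identical copies can be placed on the wrong copy, so it was counted how many stretches occur elsewhere in the nuclear genome. Of 50-base stretches, 21 of 1815 in FAMT (1.16%) and 21 of 1338 in AT3G44870 (1.57%) did, and of 100-base stretches none did in either gene.

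FAMT carried a peak in stress replicate 2 and in no other library. The peak had a pileup of 174 fragments or 6.77 FPM, a fold enrichment of 1.62 over the local background of that library, and a length of 796 bp. No peak overlapped the span in stress replicate 1, control replicate 1 or control replicate 2, so the stress libraries disagreed and neither control library had signal that was called. The peak ran from chr3:16379757 to chr3:16380552, entirely inside the gene, and its summit lay 302 bp downstream of the TSS in exon 2. Over all genes, a peak in 1 stress library and no control library was found for 2.71%.

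The bases around this summit and around the start-site summit of AT3G44870 are shown because these are the only summits called inside a gene of the pair. Each line gives 121 bases of the plus strand, centred on the summit, with no part in capitals. They lie at chr3:16379813-16379933 for FAMT in stress replicate 2 and at chr3:16382299-16382419 for AT3G44870 in stress replicate 1.

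FAMT: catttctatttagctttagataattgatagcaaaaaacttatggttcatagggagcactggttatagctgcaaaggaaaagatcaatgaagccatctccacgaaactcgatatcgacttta
AT3G44870: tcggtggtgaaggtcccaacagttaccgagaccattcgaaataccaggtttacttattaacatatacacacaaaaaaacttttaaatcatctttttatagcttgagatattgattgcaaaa

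The FAMT peak was weak relative to its surroundings and less so in its signal. Its fold enrichment was equalled or undercut by 0.748% of the nuclear peaks of stress replicate 2, whereas its signal was equalled or undercut by 23.7% of them. The local background, which the peak caller takes as the mean coverage of 10 kb around the summit in the same library, was 107 fragments or 4.15 FPM, against a median of 2.71 FPM over the peaks of that library. The −log10 p of the peak was 9.04, and the peak caller kept peaks above 5.

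At the background found in stress replicate 2, the depth of a library decided whether such a peak is called. With its pileup and background scaled to the 15974955 fragments of stress replicate 1, the Poisson −log10 p was 6.0, above the cutoff. Scaled to the 9011630 fragments of control replicate 1 it was 3.84 and to the 6396842 fragments of control replicate 2 it was 2.92, both below it. The background at FAMT in the other libraries is not in the peak tables, so it was taken from the peaks on either side, of AT3G44850 and ACD1. With these, a call needed 78 or 92 fragments in stress replicate 1 (4.88 or 5.76 FPM), 31 in control replicate 1 (3.44 FPM) and 25 in control replicate 2 (3.91 FPM). The rate of 6.77 FPM seen in stress replicate 2 would have given 108, 61.0 and 43.3 fragments in stress replicate 1, control replicate 1 and control replicate 2, all above these numbers. With the neighbouring backgrounds, the FAMT signal of the libraries without a call was thus below the rate of stress replicate 2. The scaled peak failed at control depths only with the background of stress replicate 2 itself, 4.15 FPM. The 10-kb windows of the AT3G44850 and ACD1 peaks together cover that of the FAMT summit. Their backgrounds were 1.46 and 1.44 FPM in control replicate 1 and 1.46 and 1.50 FPM in control replicate 2. The background at FAMT cannot exceed the sum of such a pair, which is below 4.15 FPM in both control libraries.

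**Figure D1:**
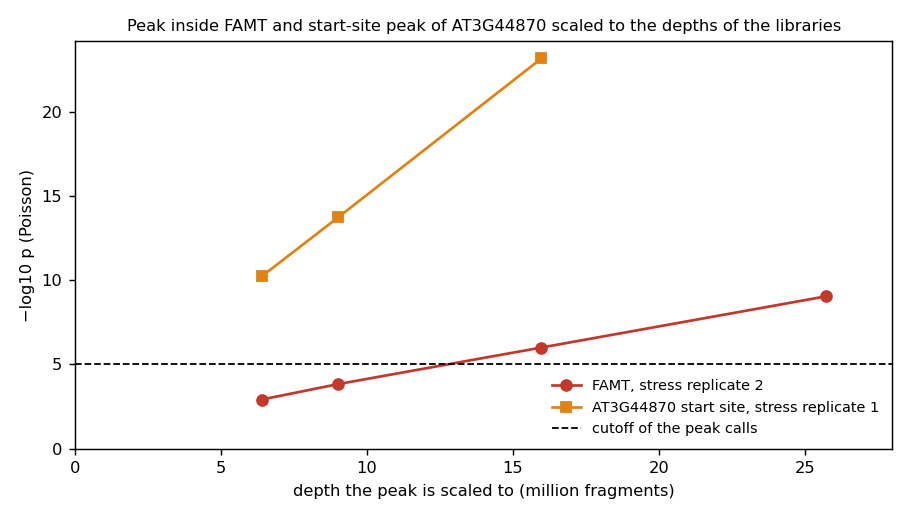
The −log10 p of the peak inside FAMT (stress replicate 2) and of the start-site peak of AT3G44870 (stress replicate 1) after scaling pileup and background to the depth of each library no deeper than their own. The FAMT peak passes the cutoff of 5 (dashed line) at 15974955 fragments and above and fails it at 9011630 and 6396842, whereas the AT3G44870 peak passes at each depth. The background is that of the library with the peak, not that of the library scaled to.

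AT3G44870 had a peak at its own TSS in stress libraries only. In stress replicate 1 a peak of 570 bp from chr3:16382051 to chr3:16382620 had a pileup of 154 fragments or 9.64 FPM, and a fold enrichment of 2.50. Its summit lay 140 bp downstream of the TSS in intron 1. In stress replicate 2 a single peak of 2359 bp began at the same base, chr3:16382051, covered all 1387 bases of the gene and ran on to chr3:16384409, with a pileup of 245 fragments or 9.53 FPM and a fold enrichment of 2.94. The summit of this long peak was 1902 bp from the TSS, past the gene end, so the pileup at the TSS itself is not known in stress replicate 2. No peak reached the TSS in control replicate 1 or control replicate 2.

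The summits of the other peaks in the span lay in the next gene, ACD1 (AT3G44880), which encodes the pheophorbide a oxygenase of chlorophyll breakdown and whose start overlaps the end of AT3G44870. In stress replicate 1 a second peak of 1296 bp with 9.77 FPM and a fold enrichment of 2.69 had its summit 518 bp inside ACD1 and covered 492 bases of AT3G44870. In control replicate 1 a peak of 848 bp with 7.77 FPM and a fold enrichment of 5.08 reached into AT3G44870 by 44 bases only. In control replicate 2 the ACD1 peak of 803 bp, with 8.60 FPM, began 47 bp past the end of AT3G44870 and was not in its span. Counted by the span, AT3G44870 thus had a peak in 3 of 4 libraries, a pattern of both stress libraries and 1 control library that was found for 4.58% of all genes. Counted by a summit inside the span, it had a peak in stress replicate 1 alone. Each of these peaks was still called after scaling to the smallest library, with a −log10 p of 10.2 for the start-site peak of stress replicate 1.

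**Figure D2:**
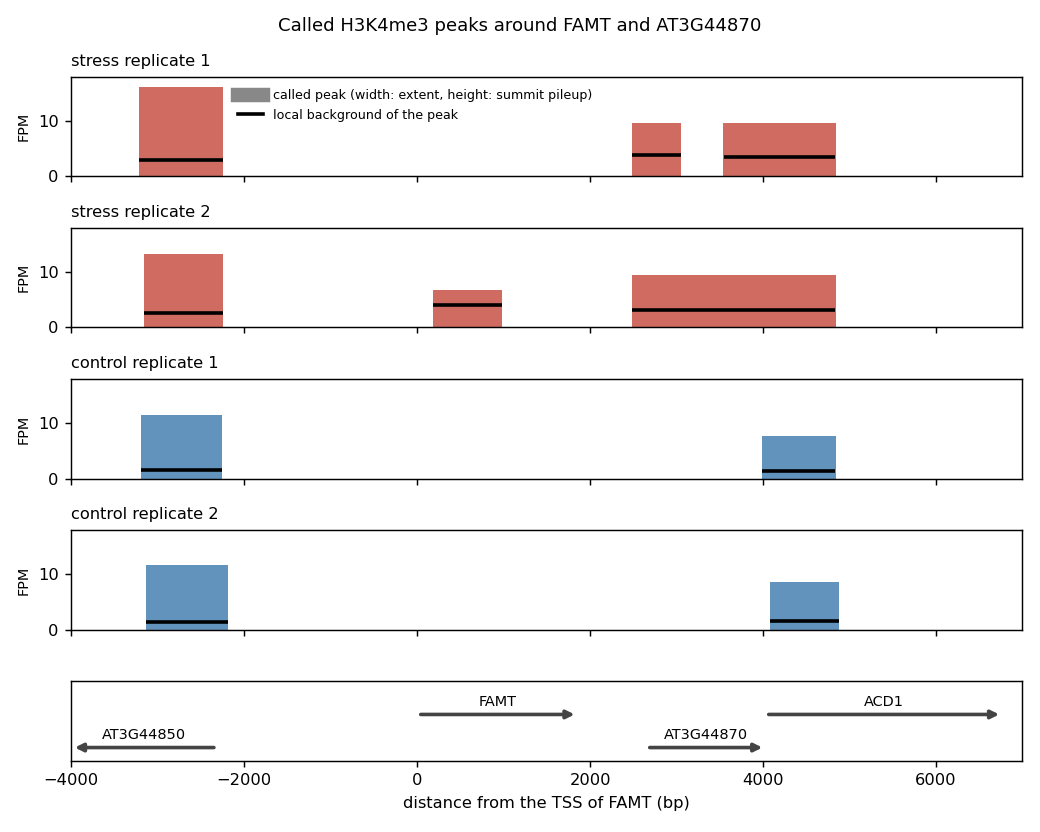
Called H3K4me3 peaks of the 4 libraries around FAMT, by distance from its TSS in bp. The width of a bar is the extent of a peak, its height the pileup (FPM), the black line the local background, and the arrows are genes. Peaks over the start of AT3G44850 and over ACD1 are in every library, the start-site peak of AT3G44870 is in stress libraries only, and FAMT has a peak of 6.77 FPM in stress replicate 2 alone.

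The local background of the locus differed more between the groups than the peaks did. At the ACD1 peak it was 3.58 and 3.21 FPM in stress libraries, against 1.44 and 1.50 in control libraries. The groups did not overlap, and the means differed by 2.31-fold (3.40 ± 0.263 FPM in stress libraries and 1.47 ± 0.0433 FPM in control libraries, SD, n = 2 each). The pileup of the same peak was 9.77 and 9.53 FPM in stress libraries and 7.77 and 8.60 in control libraries, a ratio of 1.18. As a consequence of the calculation, the fold enrichment at ACD1 was lower in stress libraries (2.69 and 2.94) than in control libraries (5.08 and 5.28).

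The upstream neighbour showed the same order of values. AT3G44850, annotated as a protein kinase, had 16.2 and 13.3 FPM in stress libraries, against 11.4 and 11.7 in control libraries. Its local background was 2.90 and 2.57 FPM in stress libraries and 1.46 and 1.46 in control libraries, a ratio of 1.87. Its fold enrichment was 5.48 and 5.11 in stress libraries and 7.35 and 7.36 in control libraries. Pileup and background were thus higher in both stress libraries, and fold enrichment, which depends on the other 2, was lower. The groups did not overlap in any of the 3 measures, at a locus chosen for its difference. At AT3G11490, beside BSMT1, they did not overlap either, with a lower background and a higher fold enrichment in stress libraries. How many of all regions separate in this way was not counted. Nothing about the locus is therefore read from the lack of overlap, here or at ACD1.

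The windows behind these backgrounds contain FAMT and AT3G44870 in full. Over the 11925 merged regions that had peaks in all 4 libraries, the median log2 difference of the local background between stress and control was -0.00344. A difference at least as large as that at ACD1 (1.21) was found in 3 regions including its own, which is 0.0252%, and one at least as large as that at AT3G44850 (0.90) in 12 regions, which is 0.101%. The values of this locus are part of what it was chosen for, and nothing is read from these shares. The other 2 regions at or above ACD1 were nearest to the TSS of AT5G38710, annotated with proline dehydrogenase activity, and of AT5G39080, an HXXXD-type acyl-transferase. They are named after their values were seen.

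The coverage that the 10-kb window around the ACD1 summit can hold outside its called peaks was bounded, with each peak counted at most at its pileup over its full length and fragments taken at the mean size of their library. Outside the peaks it was at least 2.17 FPM in stress replicate 1, and between 0.623 and 4.69 in stress replicate 2. In control libraries it was between 0.853 and 1.57 FPM in replicate 1 and between 0.881 and 1.63 in replicate 2. The lower bound of stress replicate 1, in which FAMT has no called peak, lay above the upper bounds of both control libraries, while the bounds of stress replicate 2 overlapped them. In the window of AT3G44850 the bounds of the groups overlapped, with a lowest value of 1.47 in stress replicate 1 and a highest of 1.61 in both control libraries.

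**Figure D3:**
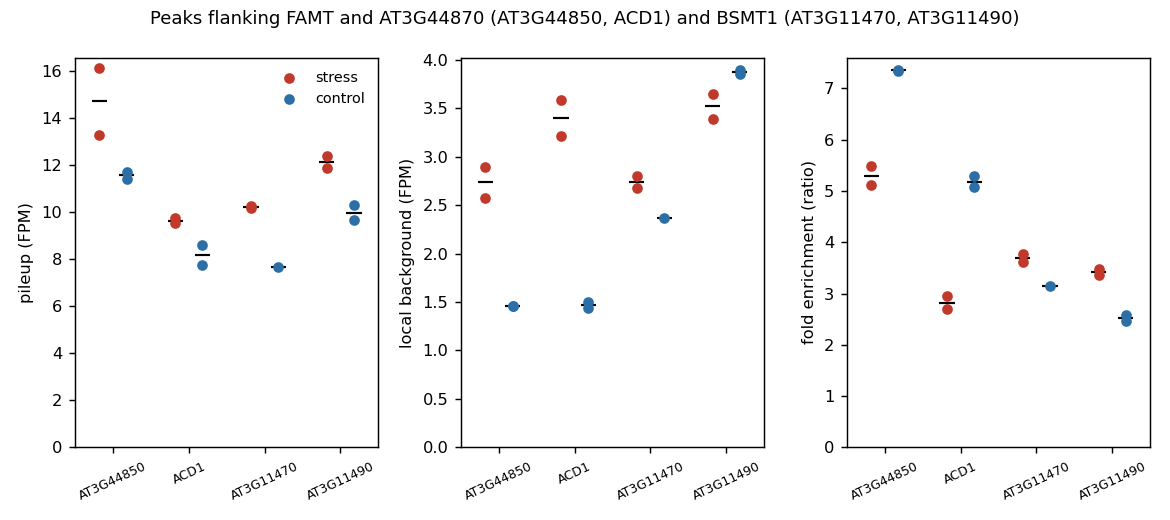
Pileup in FPM, local background in FPM and fold enrichment of the peaks of AT3G44850 and ACD1, on either side of FAMT and AT3G44870, and of AT3G11470 and AT3G11490, on either side of BSMT1. Points are libraries (2 stress, left, and 2 control, right, for each gene, except 1 control at AT3G11470) and lines are means. At AT3G44850 and ACD1 the background of stress libraries is 1.87 and 2.31 times that of control libraries and fold enrichment is lower, whereas the background is higher in stress libraries at AT3G11470 and 0.908 times that of control libraries at AT3G11490.

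JMT had no peak in its span in any of the 4 libraries. The gene spans chr1:6788885-6791919 on the minus strand with 4 exons and a coding length of 1170 bases. The nearest peak upstream of its TSS lay 10386 and 10381 bp away in stress libraries and 10404 and 10456 bp in control libraries. Downstream of the gene end the nearest peak was 1217 and 1244 bp away in stress libraries, inside the cytochrome P450 gene CYP722A1, against 13381 and 9495 bp in control libraries. This small peak, called in stress libraries only, was 336 and 262 bp long with 2.69 and 2.68 FPM and a fold enrichment of 3.70 and 3.84. The local background there, 0.681 and 0.670 FPM, was below the 5th percentile of the peaks of each library (0.940 and 0.733), and its 10-kb window contains JMT in full, so JMT lay in a stretch of chromosome with little H3K4me3 in both stress libraries. Of the genes around JMT, AT1G19620 and AT1G19650 had no peak in any library, while CYP722A1 held the small peak of the stress libraries.

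BSMT1 likewise had no peak in its span in any library, although its neighbours carried the mark. The gene spans chr3:3614421-3617342 with 5 exons and a coding length of 1140 bases. Upstream, AT3G11470, a phosphopantetheinyl transferase, had 10.3 and 10.2 FPM in stress libraries, against 7.66 FPM in control replicate 1 and no peak in control replicate 2. Downstream, the rac GTPase activating protein gene AT3G11490, whose end overlaps that of BSMT1, had 12.4 and 11.9 FPM in stress libraries and 9.65 and 10.3 in control libraries. Its peak was also longer, with 1168 and 1198 bp in stress libraries and 795 and 426 bp in control libraries. Over all nuclear peaks the median length was likewise greater in the deeper stress libraries (967 and 1000 bp) than in control libraries (830 and 772.5 bp). Whether depth has a part in the length or the edges of this peak was not tested. The local backgrounds on the 2 sides of BSMT1 went in different directions. At AT3G11490 it was 3.65 and 3.39 FPM in stress libraries, against 3.85 and 3.90 in control libraries, and at AT3G11470 it was 2.80 and 2.68 FPM in stress libraries, against 2.36 in control replicate 1. The peak edge nearest to BSMT1 downstream was 1430 and 1420 bp from its end in stress libraries and 1823 and 2172 bp in control libraries.

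Most genes of the SABATH family were without H3K4me3 peaks in these roots. Of 24 family members, 18 (75%) had no peak in the span in any library, against 32.1% of all protein-coding genes, and 1 had a peak in every library, against 54.3%. Without the 4 genes that were picked, 16 of 20 had no peak. AT3G44840, the related copy near FAMT, and the gibberellin methyltransferases GAMT1 and GAMT2 were among the genes with none. The only member with a peak in every library, AT1G15125, had 23.3 and 21.8 FPM in stress libraries and 20.6 and 19.2 in control libraries. That peak had no base in the gene and lay over the start of AT1G15120, a subunit of the ubiquinol-cytochrome c reductase, and its difference did not pass the test (log2 0.18 ± 0.12 SE, adjusted p = 0.318 by limma over 14892 genes).

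Outside the picked genes, the highest peak at the start of a family member was at AT5G38100, annotated as a methyltransferase superfamily protein. It had 6.64 and 5.44 FPM in stress libraries, against 2.55 in control replicate 1 and no peak in control replicate 2. The stress peaks were 1881 and 1850 bp long, with 1692 and 1596 bases in the gene, and that of control replicate 1, a shallower library, was 838 bp. Their local background was 1.28 and 1.17 FPM in stress libraries and 0.664 in control replicate 1, so at AT5G38100 too pileup and background were higher in both stress libraries than in the control library with a peak. A gene missing a peak in 1 library could not enter the comparison of signal. Without control replicate 2 it entered and was higher under stress (log2 1.24, adjusted p = 3.3e-06 by limma), with a single control library that is assumed to vary like the others.

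The other 2 peaks in the family were weak. IAMT1, the methyltransferase of the auxin indole-3-acetic acid, had a peak of 264 bp with 1.75 FPM at its TSS in stress replicate 2 only. AT1G68040 had one of 385 bp with 4.51 FPM in stress replicate 1 only, and its summit lay at position -994 from the TSS with no base of the peak in the gene. No family member had a peak in a control library and none in the stress libraries. This pattern is rare over all genes, with 0.164% for both control libraries and 0.536% for 1 control library. Its absence among 24 genes therefore says nothing particular about the family.

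**Figure D4:**
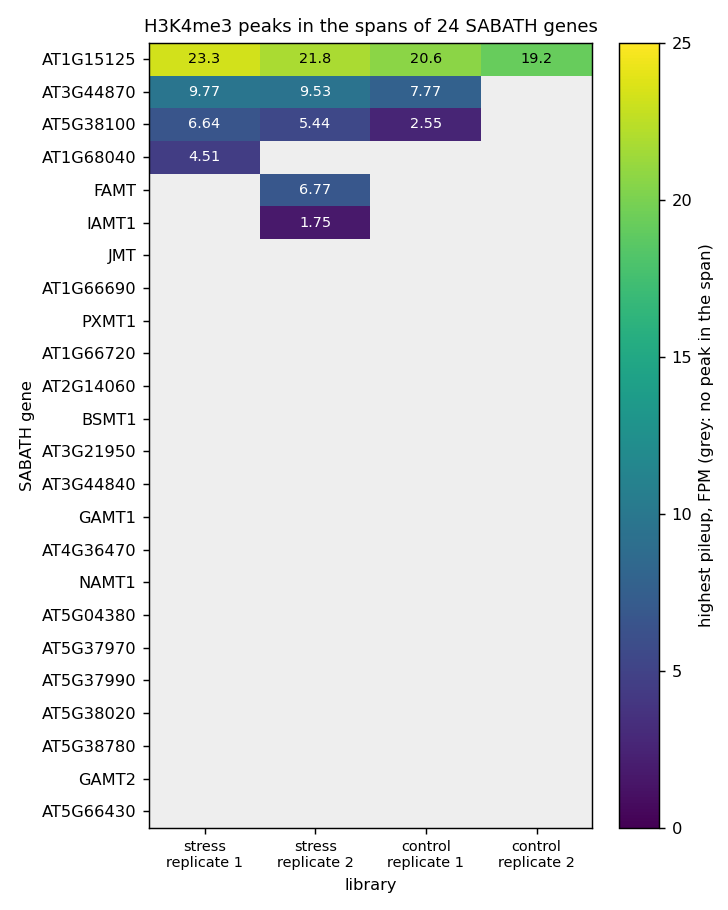
Highest pileup in FPM of a peak in the span of each of 24 SABATH genes (vertical axis) in 2 stress and 2 control libraries (horizontal axis). Grey means no called peak. AT1G15125 has a peak in every library (19.2 to 23.3), 5 more genes have one in 1 to 3 libraries, and 18 have none.

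Genes that act before and after these methyltransferases were compared between stress and control where every library had a peak. Over all 14892 such genes, 1287 were higher (8.64%) and 1559 lower (10.5%) under stress at an adjusted p under 0.05 by limma, with a median log2 difference of 0.01. This split depends on the scaling. After division by the median of each library 1236 were higher and 2671 lower, and with fold enrichment in place of signal 1157 were higher and 811 lower. The lists below were chosen with earlier results of these data known, and their counts stand beside the shares over all genes with no test of a list.

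Of 11 enzymes that conjugate, oxidise, sulphate or hydrolyse jasmonates, 7 were tested, 3 rose and none fell by limma (1 with a lower value at an unadjusted p under 0.05), and the median log2 difference was 0.18. AT5G05600, an oxygenase of the 2-oxoglutarate and Fe(II)-dependent superfamily, had 25.2 and 27.3 FPM in stress libraries, against 15.6 and 13.6 in control libraries (log2 0.84 ± 0.12 SE, adjusted p = 1.9e-06 by limma). The amidohydrolase gene ILL6 had 13.2 and 10.0 FPM in stress libraries and 6.66 and 6.72 in control libraries (log2 0.78 ± 0.15 SE, adjusted p = 0.00012 by limma). IAR3, which like ILL6 cleaves amino acids from jasmonate and auxin conjugates, had 25.2 and 22.3 FPM in stress libraries and 14.8 and 14.5 in control libraries (log2 0.69 ± 0.12 SE, adjusted p = 4.4e-05 by limma). At these 3 genes the values of the groups did not overlap, which the rule for naming called genes required. With fold enrichment ILL6 and IAR3 did not pass (adjusted p = 0.077 and 0.095 by limma).

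The other 4 tested jasmonate enzymes did not pass the test. JAR1, which joins jasmonic acid to isoleucine and so competes with JMT for its substrate, had 20.0 and 19.8 FPM in stress libraries and 18.6 and 18.3 in control libraries (log2 0.11, adjusted p = 0.55 by limma). CYP94B1, which hydroxylates jasmonoyl-isoleucine, had 7.76 and 7.58 FPM in stress libraries and 8.66 and 10.3 in control libraries and passed as lower with fold enrichment only (adjusted p = 0.0071 by limma). CYP94B3 and CYP94C1, which oxidise the same conjugate, had higher values that did not pass (log2 0.18 and 0.16, adjusted p = 0.43 and 0.41 by limma). A further 2 genes could not be tested and had peaks in stress libraries only. The hydroxyjasmonate sulphotransferase gene ST2A had a peak of 6.64 and 5.13 FPM in stress libraries and none in control libraries. AT2G38240, another 2-oxoglutarate and Fe(II)-dependent oxygenase, had 7.39 and 7.31 FPM in stress libraries and none in control libraries, and its peak was nearest to the TSS of AT2G38230. Of all genes, 4.66% had peaks in both stress libraries only.

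Of 20 MES esterases, 8 were tested, none rose (1 had a higher value at an unadjusted p under 0.05) and 3 fell by limma, and the median log2 difference was -0.04. ACL, also known as MES2, had 3.57 and 3.46 FPM in stress libraries, against 6.55 and 7.66 in control libraries (log2 -1.01 ± 0.18 SE, adjusted p = 4.4e-05 by limma). MES11 had 10.95 and 6.53 FPM in stress libraries and 12.5 and 13.8 in control libraries (log2 -0.63 ± 0.15 SE, adjusted p = 0.0023 by limma). Its fall rests on stress replicate 2, since without that library the log2 difference was -0.26 and the adjusted p 0.33 by limma. MES7 was just past the threshold with 3.44 and 2.68 FPM in stress libraries and 3.88 and 5.16 in control libraries (log2 -0.56 ± 0.21 SE, adjusted p = 0.0495 by limma), and leaving out any library but control replicate 1 ended the call (log2 between -0.74 and -0.35, adjusted p of up to 0.43). With fold enrichment ACL passed as lower (adjusted p = 0.0050 by limma), while MES11 and MES7 did not pass (0.33 and 0.29). MES9, which demethylates methyl salicylate, had a peak of 3.69 and 4.28 FPM in stress libraries and none in control libraries. MES6 had the same pattern, with 3.44 and 2.68 FPM in stress libraries, but these are the values of MES7 and the peak was nearest to the TSS of MES7. Of all genes, 4.66% had peaks in both stress libraries only.

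The S-adenosylmethionine cycle supplies the methyl donor of all these enzymes. Of 11 genes, 9 were tested, none rose (2 had higher values at an unadjusted p under 0.05) and 3 fell by limma, with a median log2 difference of -0.22. MS2, a methionine synthase, had 10.1 and 8.75 FPM in stress libraries, against 16.6 and 15.9 in control libraries (log2 -0.79 ± 0.13 SE, adjusted p = 1.5e-05 by limma). The S-adenosylmethionine synthetase genes MTO3 and MAT3 fell as well. With fold enrichment MTO3 and MS2 passed as lower (adjusted p = 0.011 and 0.022 by limma) and MAT3 did not pass (0.15). MTO3 had 35.1 and 29.3 FPM in stress libraries and 48.2 and 54.6 in control libraries (log2 -0.68 ± 0.16 SE, adjusted p = 0.0019 by limma), and MAT3 had 26.7 and 23.8 FPM in stress libraries and 34.1 and 35.0 in control libraries (log2 -0.45 ± 0.14 SE, adjusted p = 0.014 by limma). The other synthetase genes did not pass and had values in the other direction, with 15.9 and 14.7 FPM in stress libraries and 13.9 and 12.8 in control libraries for SAM1 (adjusted p = 0.26 by limma), and 24.3 and 21.9 in stress libraries and 18.9 and 18.4 in control libraries for SAM-2 (adjusted p = 0.070 by limma). Leaving out either control library ended the calls of MTO3 and MAT3, while the differences stayed about as large. Without control replicate 1 or control replicate 2 the log2 difference was -0.77 or -0.59 for MTO3 (adjusted p of up to 0.20 by limma) and -0.47 or -0.43 for MAT3 (up to 0.21).

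Of 8 genes that make farnesyl diphosphate or recycle farnesol and farnesylcysteine, 7 were tested, 2 rose and 2 fell, with a median log2 difference of -0.31. FLDH, a farnesol dehydrogenase that acts on the path to farnesoic acid, had 19.3 and 19.1 FPM in stress libraries, against 13.3 and 14.7 in control libraries (log2 0.46 ± 0.12 SE, adjusted p = 0.0055 by limma). FPS2, a farnesyl diphosphate synthase, had 15.5 and 14.0 FPM in stress libraries and 10.7 and 10.8 in control libraries (log2 0.45 ± 0.13 SE, adjusted p = 0.0085 by limma). Farnesol kinase, FOLK, had 13.1 and 13.2 FPM in stress libraries and 16.6 and 17.2 in control libraries (log2 -0.36 ± 0.12 SE, adjusted p = 0.030 by limma). The prenylcysteine methyltransferase gene ATSTE14B had 20.6 and 17.9 FPM in stress libraries and 24.9 and 26.0 in control libraries (log2 -0.40 ± 0.13 SE, adjusted p = 0.018 by limma). The highest peak in its span was nearest to its own TSS in some libraries and to that of the neighbour AT5G08330 in others. These values thus do not follow a single peak. With the gene body only the log2 difference was -0.51 (adjusted p = 0.0028 by limma). With fold enrichment FPS2 passed as higher (adjusted p = 0.044 by limma), while FLDH, FOLK and ATSTE14B did not pass (0.15, 0.40 and 0.22). With a library left out the calls by signal were often lost, while the differences kept their direction. FOLK lost its call with each of the 4 libraries left out in turn (log2 between -0.39 and -0.34, adjusted p of up to 0.15 by limma). ATSTE14B lost it without stress replicate 2 or either control library (log2 between -0.43 and -0.30, adjusted p of up to 0.18). FLDH lost it without control replicate 1 (log2 0.39, adjusted p = 0.10) and FPS2 without stress replicate 1 (log2 0.38, adjusted p = 0.091).

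**Figure D5:**
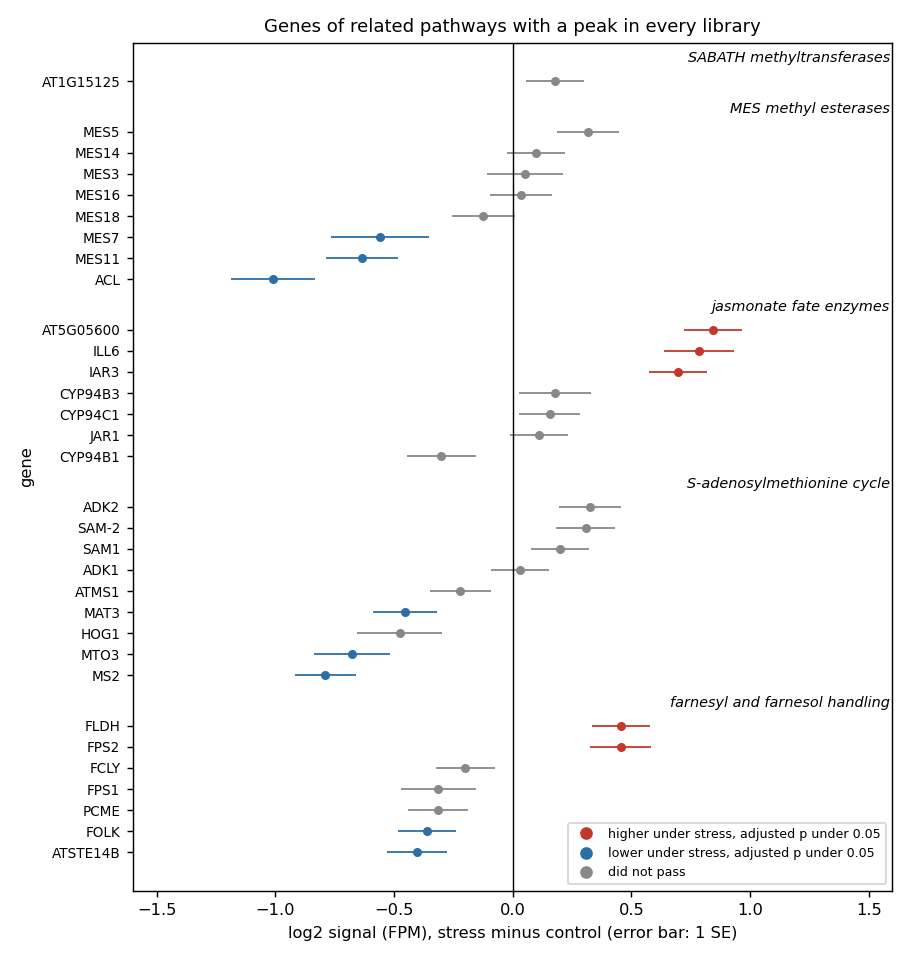
Difference of log2 signal (FPM), stress minus control, with 1 SE, for the genes of 5 lists that have a peak in every library (2 stress and 2 control). Of the jasmonate enzymes 3 of 7 are higher, of the MES esterases 3 of 8 and of the S-adenosylmethionine cycle 3 of 9 are lower, and of the farnesyl and farnesol genes 2 are higher and 2 lower, against 8.64% higher and 10.5% lower over all genes.

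Genes with the most similar pattern were sought outside these lists, among protein-coding genes with peaks in the same libraries, by the distance of their log2 signal. For FAMT, with 1 library and 658 candidates, AT3G09760, CBSX5 and AT5G63990 had the same signal of 6.77 FPM in stress replicate 2. For AT3G44870, over 3 libraries and 1048 candidates, the nearest were PAP18 with 9.89 and 9.84 FPM in stress libraries and 7.66 in control replicate 1, then RPB5D and GTE6. The Euclidean distances were 0.054, 0.056 and 0.060. JMT and BSMT1 have no value from which a likeness could be measured.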

How the data were processed

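Peak tables of 4 H3K4me3 CUT&Tag libraries were used. Per the file headers, the authors ran MACS 2.2.7.1 on each library alone, with paired fragments, a p cutoff of 1e-05 and no input library. The effective genome size in the headers is 2.7e+09 bases, larger than the Arabidopsis genome. It sets the lowest background the caller can use, 0.100 and 0.0919 FPM in stress libraries and 0.0985 and 0.100 FPM in control libraries. A smaller size would raise this floor, so weak peaks, low backgrounds and the fold enrichments over them depend on it. Another size was not tested. The deposited columns are the pileup (a signal in raw fragments), the fold enrichment (a ratio of the pileup over the local background), and p-values and q-values as −log10. The submitters' processing notes name fastp 0.19.7, Bowtie2 2.3.5.1, DiffBind 2.10.0 and the build TAIR10. Gene positions and sequences came from NCBI's TAIR10.1 reference, and no peak runs past the end of a nuclear chromosome.

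The local background was worked out from pileup and fold enrichment, which gave back the deposited −log10 p-values within 0.00102. The signal of a gene is the highest pileup of any peak in its span, divided by the fragments of the library and multiplied by 1000000 (FPM). Its log2 was fitted across 14892 genes that have peaks in all 4 libraries, using limma 3.58.1 (R 4.3.3) with a trended eBayes step, Benjamini-Hochberg adjustment and a threshold of 0.05. Python 3.11.15, pandas 2.3.3 and scipy 1.17.1 were used elsewhere. On simulated data for this fit (14892 genes), 55% of 100 genes changed by 0.5 and 100% of 100 genes changed by 1.0 on the log2 scale were recovered, with 8 false calls. The random seed of this simulation was changed once after a first run, which had recovered more of the smaller changes with fewer false calls.

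The 4 genes, the lists and the tests were chosen with earlier results of these data known. Named by rule are the 4 genes, up to 5 called genes per list and direction whose groups do not overlap, SABATH genes with peaks in all libraries, flanking genes, genes that share a peak, and the 3 genes most alike to each of the 4. Other list genes named (AT5G38100, IAMT1, AT1G68040, AT3G44840, GAMT1, GAMT2, JAR1, CYP94B1, ST2A, AT2G38240, MES6, MES9, SAM1, SAM-2, CYP94B3, CYP94C1, PLT1, PLT2, SCR and RHD6) were picked after their values were seen. Alternatives were fold enrichment, division by the median, stricter peaks, other spans, the summit in the span, equal depth, merged regions, a replicate block and each library left out. A peak table holds no counts per region, so no count model was run.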

Additional observations from a re-analysis of the deposited data

How the results depend on the processing

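The peak of FAMT was in 1 library as reported and in 0 at equal depth, with fold enrichment held to 4 or more, or with −log10 q held to 10 or more, and in 0 to 1 when a library was left out. AT3G44870 had peaks in 3 libraries, in 2 with a span of 1 kb on either side of the TSS, in 1 with a fold enrichment of at least 4 or with the summit in the span, and in 2 to 3 when a library was left out. JMT and BSMT1 had 0 under every setting run. No peak says only that none was called, and the depth of the control libraries limits what could be.

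With division by the median, 2671 genes were lower and 4 of the farnesyl genes were. With fold enrichment in place of signal, 811 genes were lower, and the lists had 1 MES gene lower, 1 jasmonate gene higher and 1 lower, 1 gene of the S-adenosylmethionine cycle higher, and 1 farnesyl gene higher and 0 lower. A −log10 q of at least 10 or equal depth left 1 MES gene lower. A fold enrichment of at least 4 left 6824 genes to test, of which 452 were higher and 664 lower, with 1 MES gene lower, 1 gene of the cycle lower, and 1 farnesyl gene higher and 0 lower. Each of the 13 called list genes kept its direction under every alternative that tested it. Other spans, stricter peaks, the summit in the span, equal depth, merged regions and the replicate block mostly reused the same values. They then gave the same log2 difference, so the direction could not change there. Apart from fewer genes tested, the cause of the changed counts was not tested.

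Leaving out each library in turn gave 695 to 1039 genes higher and 805 to 2243 lower. The ranges were 0 to 1 SABATH gene higher, 1 to 3 MES genes lower, 0 to 1 higher and 1 to 4 lower in the cycle, and 1 to 2 higher and 0 to 2 lower among the farnesyl genes, while the jasmonate genes stayed at 3 higher. Stress replicates 1 and 2 share only a number with control replicates 1 and 2 (the deviations of same-numbered replicates correlated at -0.00176). With the replicate block 1231 genes were higher and 1432 lower, and MES7 no longer passed (adjusted p = 0.057 by limma).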
